A study of Sus scrofa with 24 samples.

Results

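The genes described here are the subunits of the proteasome and the ubiquitin-conjugating (E2) enzymes that were measured in pig liver. A probe was taken where its gene name began with PSMA, PSMB, PSMC, PSMD, PSME or UBE2, and the brightest probe stood for each gene. PSMB8 and PSMB9, the other immune-type catalytic subunits, were left out by that rule, and their values are given only beside those of PSMB10, PSME1 and PSME2. This gave 40 of the 4936 gene symbols that could be assigned on the array, of which 26 were proteasome genes and 14 were E2 enzymes. They were read by 105 distinct probe sequences. The 1 probe of PSMA2 was not well above background on any of the 24 arrays, so 39 genes were tested. For those 39 the brightest probe was well above background on all 24 arrays, and no spot was saturated.

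Liver RNA was taken from 24 pigs (Sus scrofa) at 115 kg body weight, 1 array per pig and 8 pigs per group. They came from divergent lines, bred for low or for high residual feed intake (low RFI and high RFI), the feed eaten beyond what growth and maintenance predict. Both lines were sampled on ad libitum feeding, and 8 more high RFI pigs were held to the intake of the low RFI line (restricted high RFI). The labels give the lines as strains RFIneg, RFIpl and RFIplR and name no mutation, transgene or drug. Of 10 hepatocyte markers, 7 were on the array under a name, and all 7 passed the filter for signal above background. With whole liver, fewer cells of a type and less RNA per cell cannot be told apart.

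The proteasome is the barrel-shaped protease that degrades proteins marked with ubiquitin. Its 20S core is built of rings of alpha subunits, which form the gate, and rings of beta subunits, some of which carry the cutting sites. The 19S cap recognises the ubiquitin chain, removes it and unfolds the protein with a ring of ATPases, and PSME proteins form alternative caps. Ubiquitin is activated by an E1 enzyme, passed to an E2 enzyme and attached to the target with an E3 ligase. In liver this system turns over short-lived enzymes and proteins rejected from the endoplasmic reticulum. Interferon induces an immune form of the core, in which PSMB8, PSMB9 and PSMB10 replace the usual cutting subunits, together with the activator formed by PSME1 and PSME2.

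The sequences of 6 probes are shown first, as deposited in the scanner output (5′ to 3′). They are probes of immune-type genes, which were among those with an unadjusted p below 0.05 in high minus low RFI, of a pair of closely related E2 enzymes, and of the E2 enzyme set beside cell cycle genes. In the PSMB10 probe the capitals mark the 15 bases shared with another PSMB10 probe. In the UBE2D2 and UBE2D3 probes they mark the bases that differ where the probes align without gaps. The alignment covered 44 bases, of which 34 were identical (77.3%).
PSMB10 A_72_P644145: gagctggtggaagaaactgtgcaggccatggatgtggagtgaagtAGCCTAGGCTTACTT
PSME1 A_72_P035626: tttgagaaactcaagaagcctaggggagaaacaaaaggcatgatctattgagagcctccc
PSME2 A_72_P146981: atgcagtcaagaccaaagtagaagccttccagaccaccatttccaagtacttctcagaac
UBE2D2 A_72_P318403: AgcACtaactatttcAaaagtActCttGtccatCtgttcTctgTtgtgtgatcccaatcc
UBE2D3 A_72_P171486: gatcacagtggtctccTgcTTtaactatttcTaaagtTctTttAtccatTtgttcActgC
UBE2T A_72_P395328: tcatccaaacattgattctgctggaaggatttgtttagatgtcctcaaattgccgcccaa

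The PSMB10 and PSME1 probes and the UBE2T probe printed are the brightest of their genes, whereas the PSME2, UBE2D2 and UBE2D3 probes are further probes of theirs, so the levels given for those 3 genes come from other probes. The probes named for UBE2D3 are described as UBE2D2 in the scanner output and as UBE2D3 in the RefSeq annotation, so these paralogs were read as uncertain. PSME2's brightest probe and UBE2T's only probe took their names from a partial similarity in the probe's description. The GC content of the 40 brightest probes ran from 35.0% to 76.7% with a median of 44.2%, beside a median of 41.7% over all probes kept.

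Levels below are log2 signals after subtraction of each array's 75th percentile, and a difference is a difference of group means on that scale. Levels of different probes are not comparable with each other. Between 63.2% and 72.7% of the spots of an array were well above background. Arrays lay on 6 slides and were scanned on 2 days, and groups were spread over both days.

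None of the 39 genes differed between any 2 groups at an adjusted p below 0.05 (limma, Benjamini-Hochberg over 29666 probes). The count was 0 of 39 for high minus low RFI, where 48 probes (0.162% of all probes) passed. It was 0 of 39 for restricted minus high RFI, where 0 probes (0.0%) passed, and 0 of 39 for restricted high minus low RFI, where 68 probes (0.229%) passed. A test of any difference among the 3 groups also called 0 of 39, against 63 probes (0.212%). No gene of the 39 had 2 groups whose pigs did not overlap, beside 0.138%, 0.027% and 0.135% of all probes in the same order of comparisons.

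The median difference of the 39 genes was -0.01 for high minus low RFI, beside 0.00 over all probes. It was -0.005 for restricted minus high RFI, beside -0.01, and 0.04 for restricted high minus low RFI, beside -0.01. In high minus low RFI, 19 genes had a difference above 0 and 20 below, while 51.0% of all probes lay above 0. In restricted minus high RFI, 19 lay above and 20 below, beside 46.9% and 53.1% of all probes, and in restricted high minus low RFI 24 lay above and 15 below, beside 48.7% and 51.3%. With normexp background correction, 28 of the 39 lay above 0 in high minus low RFI, with a median of 0.05, while 33.2% of all probes did, with a median of -0.07. The share above 0 therefore moved with the background correction, for the 39 genes and for all probes. The sign also depended on the probe read. Of the 26 genes with several probes kept, all probes shared the sign in 15, 16 and 13 genes, in the same order of comparisons. The 95% interval of the difference stayed within 0.3 log2 units of 0 for 26 of the 39 genes in high minus low RFI, and within 0.5 for 36.

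**Figure D1:**
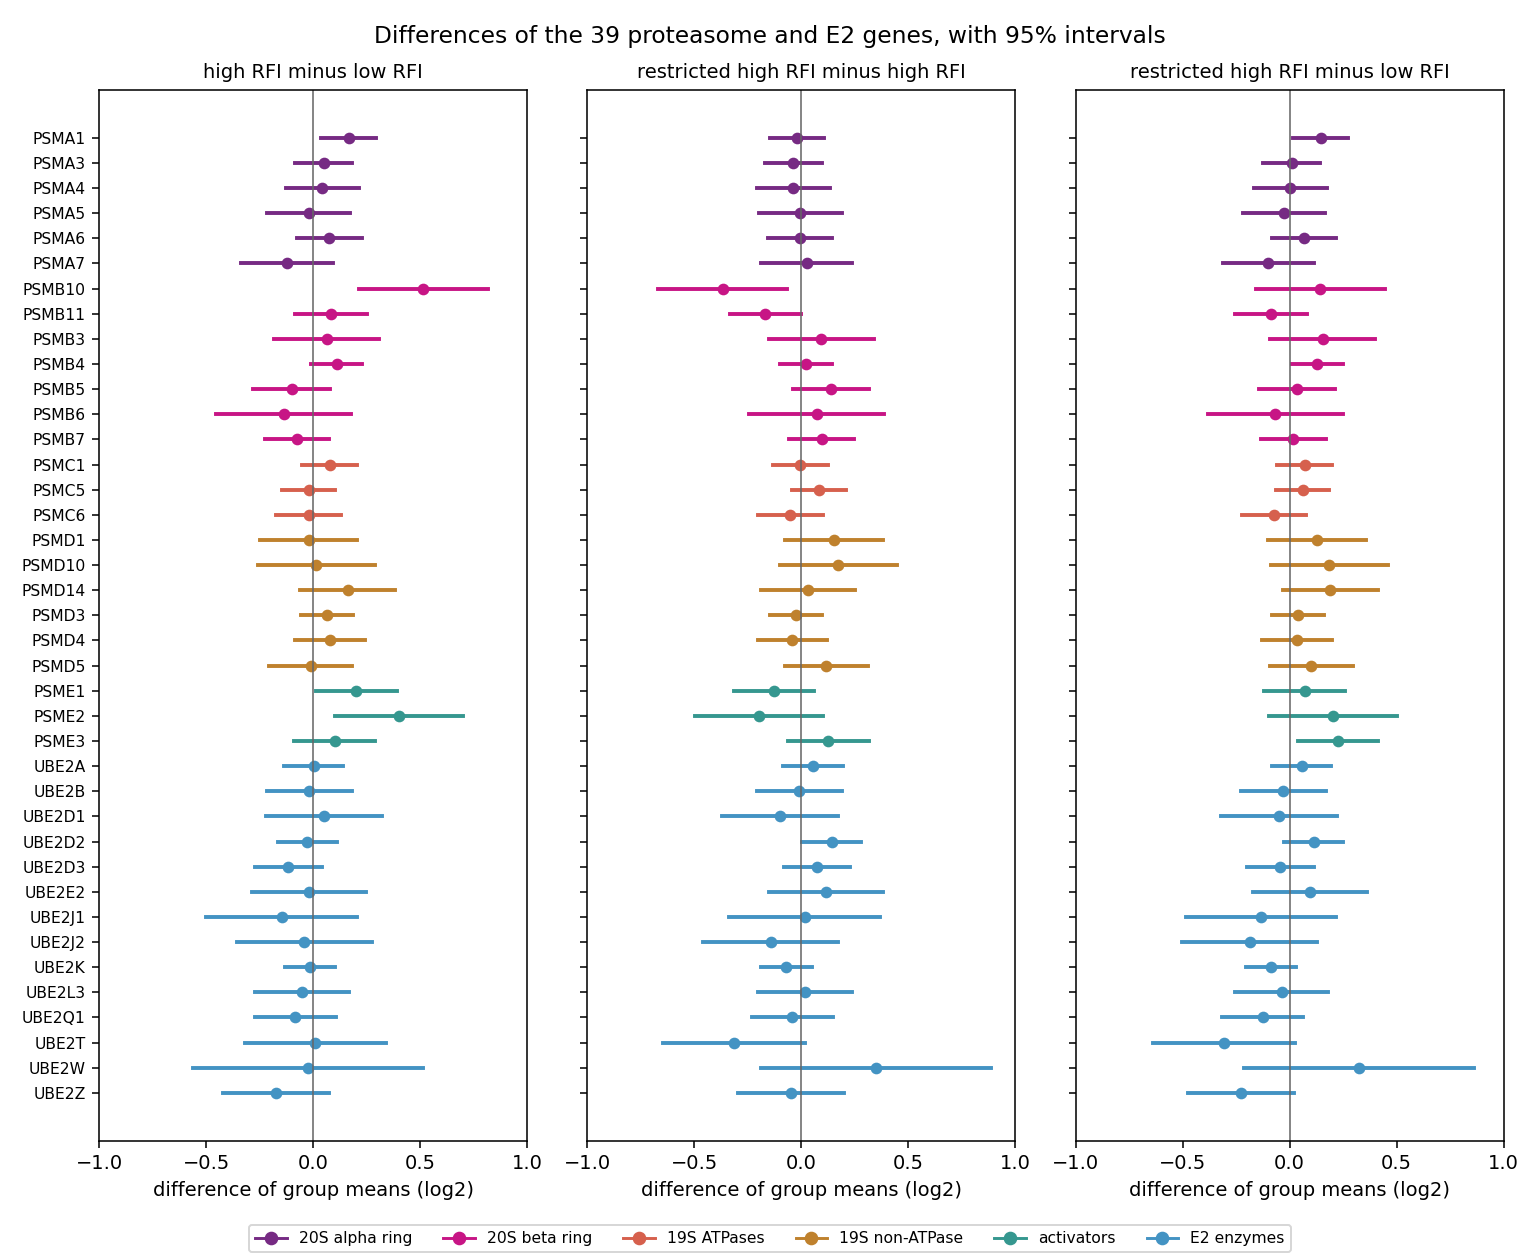
Difference of group means (log2, horizontal axis) for each of the 39 genes in the 3 comparisons; points are differences, bars 95% intervals, and colours the roles. PSMB10 lies farthest from 0 in high minus low RFI, at 0.51, and no gene of the 39 passed the adjusted threshold in any panel.

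At an unadjusted p below 0.05, 4 of the 39 genes (10.3%) were higher in high than in low RFI pigs, where 5.17% of all probes were, and 0 were lower, where 4.47% were. They were PSMB10, PSME2, PSMA1 and PSME1. In restricted minus high RFI, 1 gene was higher (UBE2D2, against 2.54% of all probes) and 2 were lower (PSMB10 and PSMB11, against 2.83%). In restricted high minus low RFI, 3 genes were higher (PSME3, PSMA1 and PSMB4, against 6.2% of all probes) and 0 were lower (against 6.59%). The first 2 comparisons share the high RFI arrays, so a gene that is high in those pigs appears in both. Over the 3 groups, PSMA1, PSMB10 and PSME2 had an unadjusted p below 0.05 in the F test, 3 of 39 where 10.9% of all probes did.

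PSMB10 is the inducible trypsin-like cutting subunit of the immune proteasome. Its level ran from 2.66 to 3.88 (median 3.01) in low RFI, from 3.21 to 4.01 (median 3.54) in high RFI and from 2.91 to 3.65 (median 3.24) in restricted high RFI pigs. Among the low RFI pigs, pig 5 stood at 3.88 and the other 7 at 3.33 or below, and apart from pig 5 and pig 2 (3.33) every low RFI pig lay below every high RFI pig. The difference was 0.51 ± 0.15 (SE, n = 8 pigs per group), a 1.43-fold higher level in high RFI pigs, with an unadjusted p of 0.0018 and an adjusted p of 0.187 (limma). All 8 high RFI pigs lay above the low RFI mean of 3.08 ± 0.38 (SD).
Without low RFI pig 5 the difference was 0.63, with an adjusted p of 0.0357 (limma), and this was the only setting tried in which any of the 39 genes passed the threshold. Pig 5 was the low RFI pig with the highest PSMB10, so leaving it out could only widen this difference. The adjusted p also depends on all other probes. For PSMB8 in high minus low RFI it fell from 0.713 to 0.667 without this pig, although the unadjusted p rose from 0.188 to 0.237 (limma).

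In restricted minus high RFI pigs the PSMB10 difference was -0.37 ± 0.15 (SE), with an unadjusted p of 0.019 and an adjusted p of 0.881 (limma), and 7 of the 8 restricted pigs lay below the high RFI mean of 3.59 ± 0.26 (SD). Restricted high minus low RFI gave 0.14, with a 95% interval from -0.16 to 0.45. All 3 PSMB10 probes had a higher mean in high than in low RFI pigs, by 0.47 to 0.58, but they are not independent measures, since 2 of them share a run of 50 bases. Within the 1st scan day the high minus low difference was 0.49 (4 high and 3 low RFI pigs) and within the 2nd it was 0.48 (4 and 5). The restricted minus high RFI difference was -0.52 within the 1st day and -0.20 within the 2nd.

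PSME1 and PSME2 encode the alpha and beta chains of the interferon-inducible activator ring. PSME2 ran from 4.14 to 4.95 (median 4.58) in low RFI, from 4.58 to 5.66 (median 4.77) in high RFI and from 4.53 to 5.04 (median 4.68) in restricted high RFI pigs. High RFI pigs 7 (5.66) and 5 (5.38) stood above all other pigs, and the other 6 high RFI pigs, at 4.58 to 4.99, overlapped both other groups. The high minus low difference was 0.40 ± 0.14 (SE), with an unadjusted p of 0.010 and an adjusted p of 0.346 (limma). Without high RFI pigs 5 and 7 it was 0.21, with an unadjusted p of 0.093 and an adjusted p of 0.645. The PSME2 probe printed above, which is named by its RefSeq accession, gave a smaller difference of 0.27, with an unadjusted p of 0.044 and an adjusted p of 0.504 (limma).

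PSME1 ran from 3.70 to 4.14 (median 3.97) in low RFI, from 3.96 to 4.60 (median 4.05) in high RFI and from 3.93 to 4.28 (median 3.98) in restricted high RFI pigs. Again high RFI pigs 5 (4.60) and 7 (4.40) were the highest of the 24, and the other 6 high RFI pigs lay between 3.96 and 4.18, within the range of the other groups. The high minus low difference was 0.20 ± 0.09 (SE), with an adjusted p of 0.487 (limma), and 0.08 without those 2 pigs.

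The same 2 pigs stood apart in the mean of a list of interferon-induced genes and in PSMB9, but not in PSMB8. The mean deviation of 24 such genes from their averages was 1.64 in high RFI pig 5 and 1.85 in pig 7, and lay between -0.56 and 0.53 in the other 22 pigs. PSMB9, an inducible subunit left out of the gene set, stood at 4.15 and 4.55 in these 2 pigs and between 2.71 and 3.51 in the other 6 high RFI pigs. PSMB8, the other one left out, stood at 1.45 and 1.57 in them, within the -0.34 to 2.23 of the other 22 pigs, and its high minus low difference was 0.41, with an unadjusted p of 0.188 and an adjusted p of 0.713 (limma). Unlike PSME1 and PSME2, PSMB10 was highest among the high RFI pigs in pig 4 (4.01). That pig had the highest interferon gene score of the other 22 pigs, at 0.53. Pigs 5 (3.84) and 7 (3.71) came next for PSMB10 among the high RFI pigs. Without pigs 5 and 7 the high minus low difference of PSMB10 was still 0.45, with an unadjusted p of 0.010 and an adjusted p of 0.391 (limma). Low RFI pig 5, the low RFI pig with the highest PSMB10, also had the highest interferon gene score of its group, at 0.36. Of the 24 interferon genes, 23 were higher on average in high than in low RFI pigs, beside 51.0% of all probes. The adjusted threshold was passed by 1 of the 24, beside 0.162% of all probes. These averages include pigs 5 and 7. The median interferon gene score was -0.14 in high RFI and -0.35 in low RFI pigs, and the ranges overlapped. The part of these 24 genes in the PSMB10, PSME1 and PSME2 differences was not tested.

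**Figure D2:**
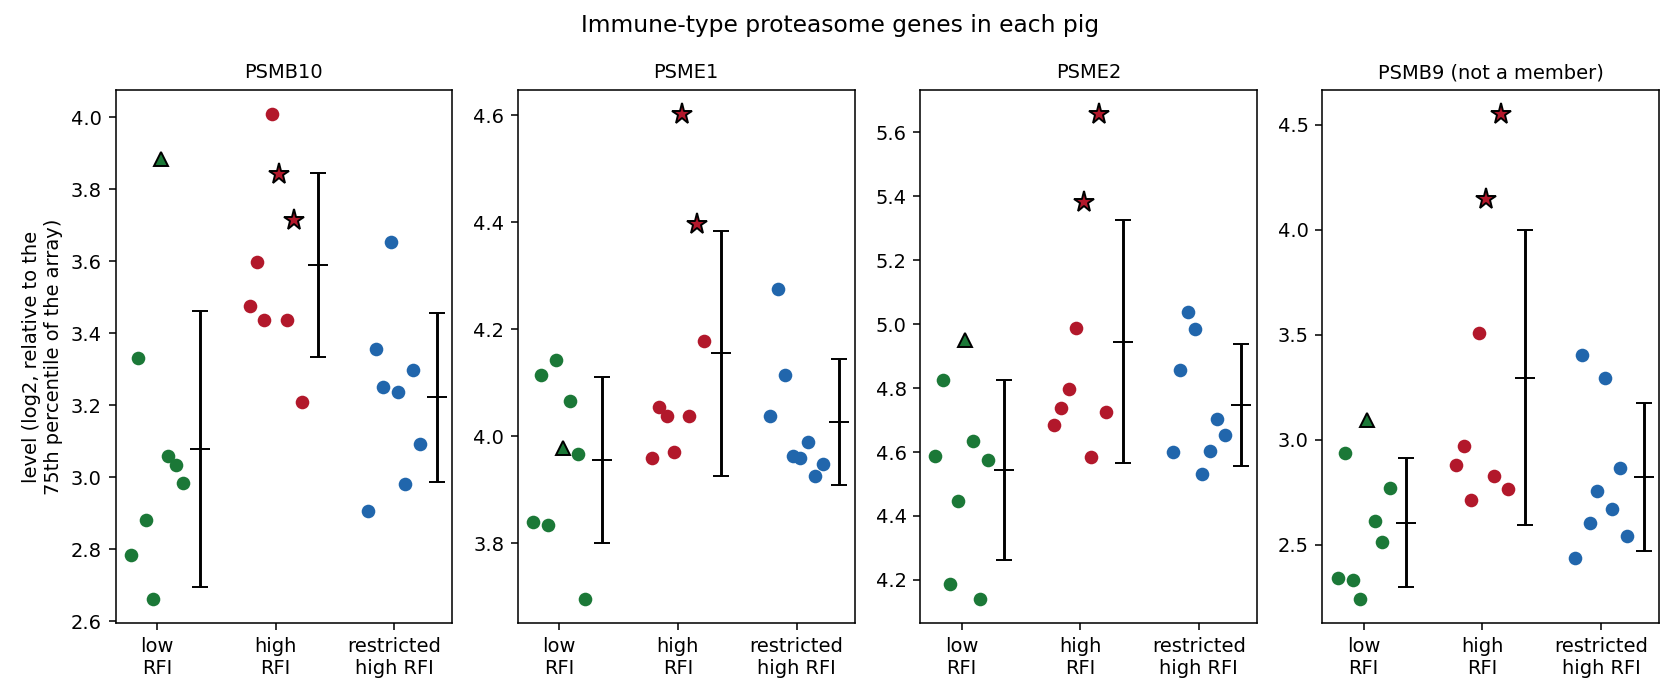
Level (log2 minus the array's 75th percentile) of PSMB10, PSME1, PSME2 and, for comparison, PSMB9 in each pig by group; stars are high RFI pigs 5 and 7, the triangle is low RFI pig 5, and the bar beside each group is the mean ± SD of 8 pigs. The stars are the highest pigs for PSME1, PSME2 and PSMB9 but not for PSMB10, where high RFI pig 4 is at 4.01.

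PSME3 is the subunit of the nuclear activator. It ran from -0.16 to 0.48 (median 0.12) in low RFI, from 0.09 to 0.52 (median 0.21) in high RFI and from 0.17 to 0.65 (median 0.35) in restricted high RFI pigs. The ranges overlapped, although all 8 restricted pigs lay above the low RFI mean of 0.15 ± 0.21 (SD). High minus low RFI was 0.10 (95% interval -0.09 to 0.29), with an unadjusted p of 0.285 and an adjusted p of 0.776 (limma), and whether it differed from PSME1 and PSME2 was not tested. All 3 activator genes had differences above 0 in high minus low and in restricted high minus low RFI. For PSME3, restricted high minus low RFI was 0.23 ± 0.09 (SE), with an unadjusted p of 0.021 and an adjusted p of 0.288 (limma). That difference was 0.44 within the 1st scan day and 0.04 within the 2nd, above 0 on both but smaller on the 2nd. Whether the days differed was not tested.

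In the alpha ring of the 20S core, the 6 genes tested had a median high minus low difference of 0.04, and 4 of 6 lay above 0. PSMA1, an alpha-ring subunit, ran from 2.94 to 3.23 (median 3.09) in low RFI, from 3.07 to 3.37 (median 3.26) in high RFI and from 3.09 to 3.35 (median 3.23) in restricted high RFI pigs. The low RFI pigs sat at the bottom of the range, with 4 of the 8 high RFI and 5 of the 8 restricted pigs above all of them. The difference was 0.17 ± 0.06 (SE) for high minus low, with an unadjusted p of 0.013 and an adjusted p of 0.37, and 0.15 for restricted high minus low RFI, with an adjusted p of 0.318 (limma). PSMA1 was also the least variable alpha subunit, with an SD of 0.10 around the group means. A second PSMA1 probe, with differences of 0.23 and -0.07 in these comparisons, was well above background on only 16 of the 24 arrays. PSMA7 and PSMA5 varied most in this ring, with SDs of 0.20 and 0.18 around the group means and differences of -0.12 (95% interval -0.34 to 0.09) and -0.02 (-0.21 to 0.17) for high minus low RFI.

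The constitutive cutting subunits of the beta ring are PSMB6 (caspase-like), PSMB7 (trypsin-like) and PSMB5 (chymotrypsin-like). Their high minus low differences were -0.14 (95% interval -0.45 to 0.18), -0.08 (-0.23 to 0.07) and -0.10 (-0.28 to 0.08), all on the opposite side of 0 from the difference of PSMB10. None had an unadjusted p below 0.05 in any comparison. The PSMB6 difference was 0.14 within the 1st scan day and -0.33 within the 2nd, so its side of 0 did not hold on both days. For PSMB7 the sign changed in 2 of 44 alternatives, and for PSMB5 in 0. PSMB5 ran from 2.21 to 2.91 (median 2.37) in low RFI, from 2.13 to 2.47 (median 2.35) in high RFI and from 2.23 to 2.60 (median 2.51) in restricted high RFI pigs, and 5 of the 8 restricted pigs lay above every high RFI pig, while the low RFI range covered nearly all of both. PSMB6 was the most variable of the ring, with an SD of 0.31 around the group means and values from 3.34 to 4.77 over the 24 pigs. Low RFI pig 5, high RFI pigs 5 and 7 and restricted pig 7 were the 4 lowest pigs at all 3 PSMB6 probes. Without these 4 pigs the high minus low difference of PSMB6 was -0.05.

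PSMB4, a structural beta subunit, was the least variable gene of this ring, with an SD of 0.09. It ran from 5.35 to 5.55 (median 5.40) in low RFI, from 5.37 to 5.64 (median 5.51) in high RFI and from 5.42 to 5.64 (median 5.56) in restricted high RFI pigs. The 8 restricted pigs all lay above the low RFI mean of 5.41, and 4 of them above every low RFI pig. Restricted high minus low RFI was 0.13 ± 0.06 (SE), with an unadjusted p of 0.036 and an adjusted p of 0.346 (limma). PSMB4 had 10 probes, and 9 of them had a difference above 0 in that comparison, with the 10 lying between -0.002 and 0.14.

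PSMB11, the catalytic subunit known from the thymus, was well above background on all 24 arrays at its 1 probe. It ran from -1.99 to -1.64 (median -1.82) in low RFI, from -1.96 to -1.36 (median -1.83) in high RFI and from -2.05 to -1.72 (median -1.91) in restricted high RFI pigs. High RFI pig 1 was the highest of the 24, and the medians of the ad libitum groups were alike. Restricted minus high RFI was -0.17 ± 0.08 (SE), with an unadjusted p of 0.050 and an adjusted p of 0.926 (limma). That difference was -0.06 within the 1st scan day and -0.25 within the 2nd.

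The ATPases of the 19S base, which unfold the substrate, varied little. Of the 3 tested, PSMC5 had an SD of 0.09, PSMC1 of 0.10 and PSMC6 of 0.13 around the group means, and their differences lay between -0.07 and 0.08 over the 3 comparisons. PSMC5 ran from 5.60 to 5.89 in low RFI, from 5.57 to 5.80 in high RFI and from 5.66 to 5.87 in restricted high RFI pigs. The ranges overlapped, with 3 restricted pigs above every high RFI pig, and the largest upper bound of a 95% interval in this class was 0.21.

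Among the non-ATPase subunits of the 19S cap and its assembly factors, all 6 genes tested had a restricted high minus low RFI difference above 0, where 48.7% of all probes did, and their median was 0.12. None of them had an unadjusted p below 0.05. The count was read at the brightest probes, and the 6 probes of PSMD1 ran from -0.53 to 0.13 in that comparison. Within the 1st scan day 6 of 6 genes lay above 0, with a median of 0.32. Within the 2nd 2 of 6 genes did, with a median of -0.02, so the count did not hold on both days. PSMD14, the subunit that removes ubiquitin chains, ran from 1.94 to 2.46 (median 2.07) in low RFI, from 1.88 to 2.46 (median 2.37) in high RFI and from 1.86 to 2.57 (median 2.37) in restricted high RFI pigs. Its group medians differed more than its ranges, and restricted high minus low RFI was 0.19 ± 0.11 (SE), with an unadjusted p of 0.087 and an adjusted p of 0.473 (limma). PSMD4, a ubiquitin receptor of the cap, gave 0.04 (95% interval -0.13 to 0.20) in that comparison. PSMD1, a scaffold subunit, and PSMD10 (gankyrin), an assembly factor, were the most variable of the class, with SDs of 0.22 and 0.27, and PSMD3 the least, with 0.09.

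Without the immune-type and thymus-type genes, 20 genes of the 20S core and 19S cap were left, assembly factors such as PSMD10 included. Their median differences were 0.03, 0.02 and 0.05 in high minus low, restricted minus high and restricted high minus low RFI. For the last, 16 of 20 lay above 0, with 17 of 20 within the 1st scan day and 9 of 20 within the 2nd, and 2 of 20 had an unadjusted p below 0.05. In single pigs, the mean deviation of these 20 genes ran from -0.14 (high RFI pig 4) to 0.18 (low RFI pig 4), so both ends were ad libitum pigs and the groups overlapped. Low RFI pig 4 was the highest of the 24 pigs for 5 of the 20 genes and low RFI pig 3 the lowest for 5.

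The median differences over all 39 genes lay above 0 on the 1st scan day and below 0 on the 2nd. The days hold different pigs, and a difference between days was not tested. In the 1st day's arrays (3 low, 4 high and 5 restricted pigs) the median difference was 0.09 for high minus low and 0.12 for restricted high minus low RFI. In the 2nd day's (5, 4 and 3 pigs) it was -0.03 for both. No gene of the 39 passed the adjusted threshold within either day.

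Of the 14 E2 enzymes, 11 had a high minus low difference below 0, where 49.0% of all probes did, and the median was -0.03. This count was read at the brightest probes, and further probes of some of these enzymes lay on the other side of 0. Within the scan days, 2 of 14 lay below 0 on the 1st and 13 of 14 on the 2nd. None had an unadjusted p below 0.05 in that comparison or in restricted high minus low RFI, where 10 of 14 lay below 0 and the median was -0.05. In restricted minus high RFI, 7 of 14 lay above 0, and UBE2D2 was the 1 with an unadjusted p below 0.05.

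UBE2D2 and UBE2D3 are close relatives that work with many E3 ligases. UBE2D2 ran from 2.80 to 3.22 (median 2.97) in low RFI, from 2.87 to 3.15 (median 2.95) in high RFI and from 2.98 to 3.22 (median 3.11) in restricted high RFI pigs. All 8 restricted pigs lay above the high RFI mean of 2.97 ± 0.09 (SD), and 3 of them above every high RFI pig. Restricted minus high RFI was 0.14 ± 0.07 (SE), with an unadjusted p of 0.043 and an adjusted p of 0.926 (limma), and its 3 probes gave 0.14 to 0.17. UBE2D3 gave 0.07 (95% interval -0.08 to 0.23) in that comparison, and its high minus low difference was -0.12 with an adjusted p of 0.661. Signal shared between the paralogs was not tested.

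UBE2T, the E2 enzyme of the Fanconi anaemia DNA repair pathway, is known for following cell division. It ran from -3.74 to -2.66 (median -3.31) in low RFI, from -3.46 to -3.13 (median -3.28) in high RFI and from -4.23 to -2.81 (median -3.69) in restricted high RFI pigs. Low RFI pig 3 (-2.66) and restricted pig 5 (-2.81) were the highest and restricted pig 8 (-4.23) the lowest. The high RFI pigs all lay inside the range of each other group. Restricted minus high RFI was -0.32 ± 0.16 (SE), with an unadjusted p of 0.060 and an adjusted p of 0.926, and restricted high minus low RFI was -0.31, with an adjusted p of 0.436 (limma). The mean deviation of 10 cell cycle genes was also highest in those first 2 pigs, at 0.78 and 1.16, and was -0.58 in restricted pig 8. None of the 10 cell cycle genes passed the adjusted threshold in any comparison, and their part in the UBE2T values was not tested.

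**Figure D3:**
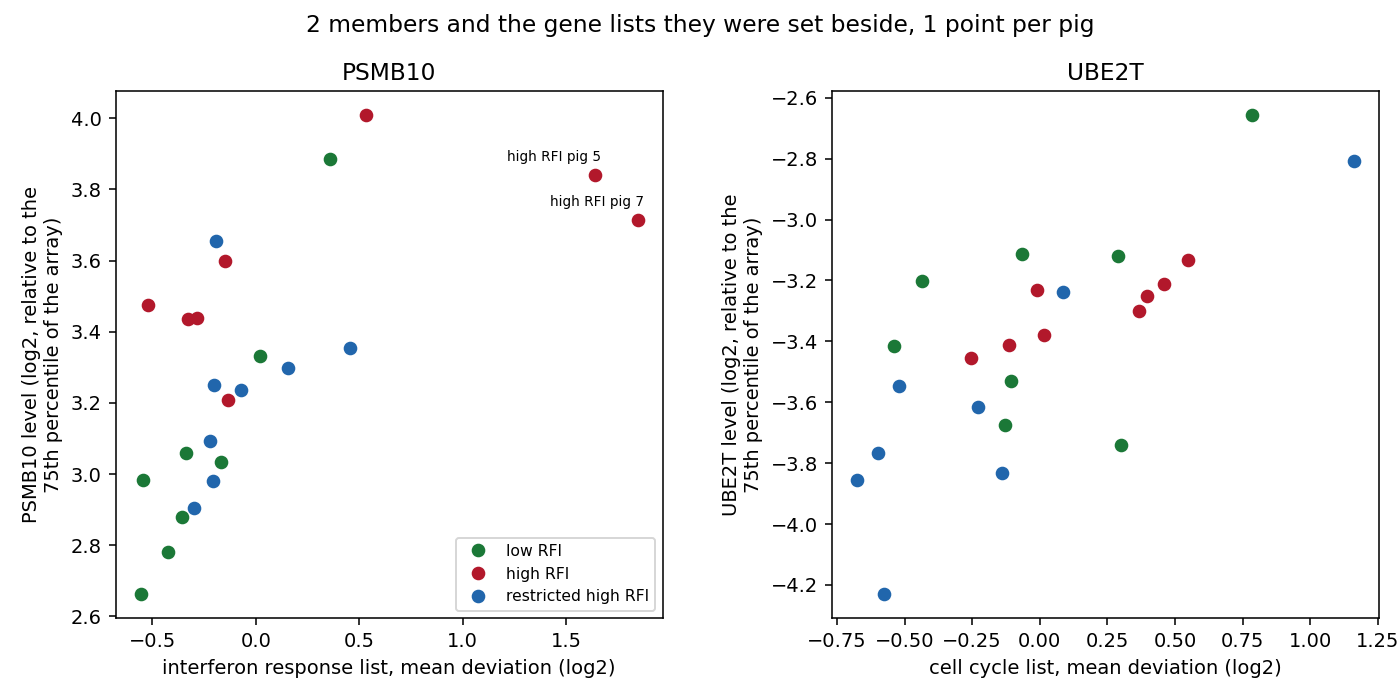
Level (log2 minus the array's 75th percentile, vertical axes) of PSMB10 against the mean deviation of 24 interferon-induced genes, and of UBE2T against that of 10 cell cycle genes, 1 point per pig, coloured by group. High RFI pigs 5 and 7 lie apart at interferon scores of 1.64 and 1.85, and the highest cell cycle scores, 0.78 and 1.16, go with the highest UBE2T levels, -2.66 and -2.81.

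UBE2Z, an E2 enzyme charged by the E1 enzyme UBA6, ran from 3.55 to 4.05 (median 3.70) in low RFI, from 3.20 to 4.02 (median 3.46) in high RFI and from 3.09 to 3.99 (median 3.46) in restricted high RFI pigs. Its restricted high minus low RFI difference was -0.23 ± 0.12 (SE), with an unadjusted p of 0.071 and an adjusted p of 0.442 (limma). That difference was -0.51 within the 1st scan day and 0.14 within the 2nd, so it did not hold on both days. The only UBE2Z probe took its name from the probe's description. UBE2K, an E2 enzyme that extends ubiquitin chains, was the least variable gene of all 39, with an SD of 0.08, and its differences lay between -0.09 and -0.02.

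The SD of the pigs around their group means ran from 0.08 to 0.55 among the 39 genes. Over the 39 genes the median SD around the group means was 0.17, beside 0.27 over all probes kept and 0.25 over all 4012 named genes at their brightest probe, a comparison that does not take the strength of each signal into account. For 32 of the 39 genes the SD was below the median of all probes, including 19 of the 20 core and cap genes, assembly factors included. The 7 above it were PSMB6, PSMB10, PSME2, UBE2J2, UBE2T, UBE2J1 and UBE2W. As a measure of noise between spots of the same array, 2 PSMB5 probes of identical sequence differed with an SD of 0.051 over the 24 arrays. For 2 UBE2D1 probes of identical sequence the SD was 0.066. Error shared by a whole array is not included in these values.

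**Figure D4:**
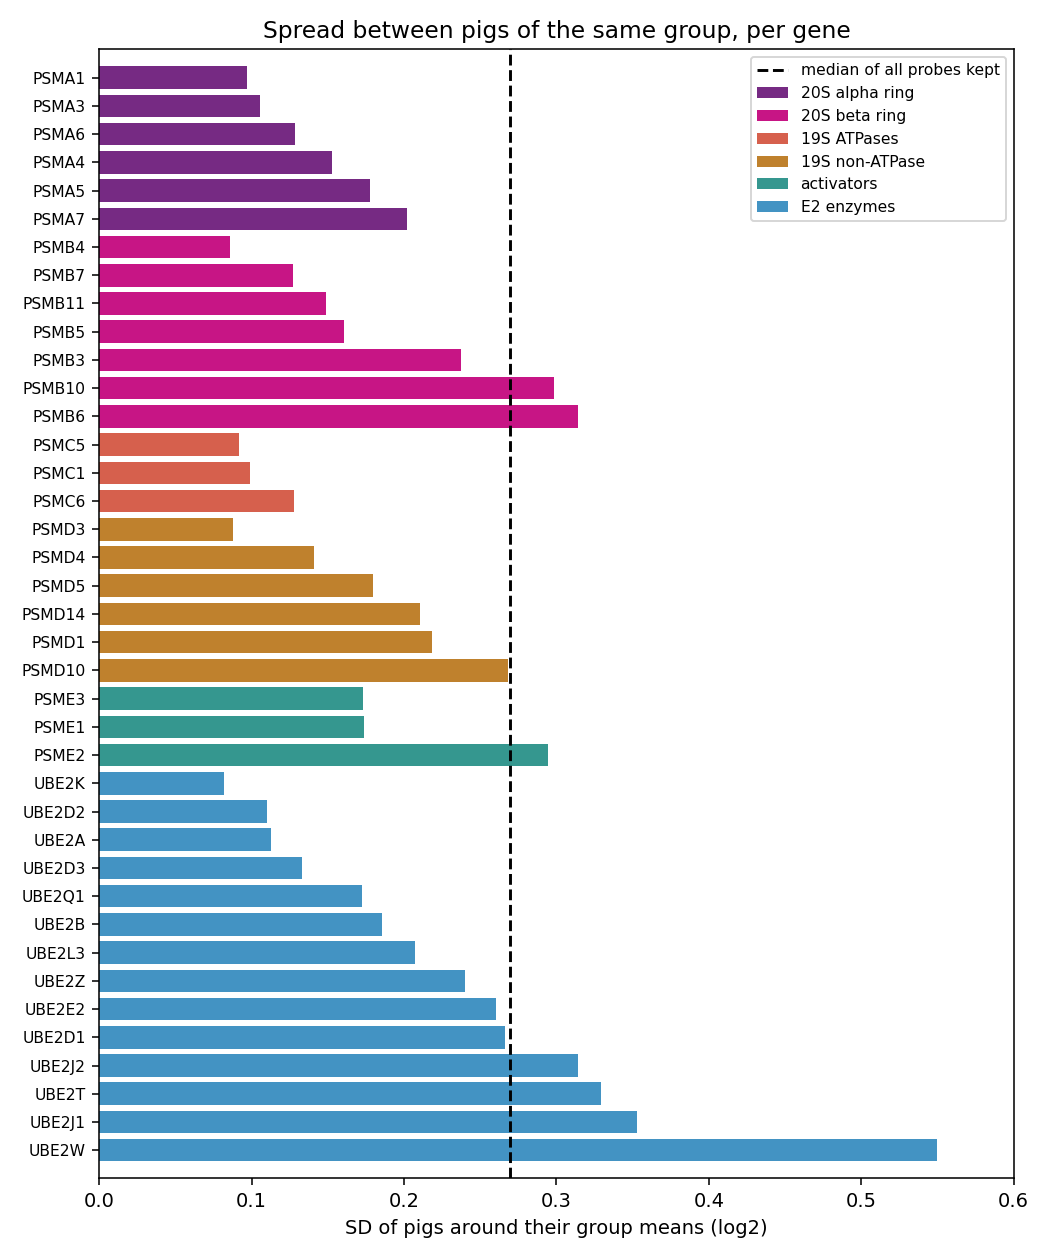
SD of the 24 pigs around their group means (log2, horizontal axis) for each of the 39 genes, coloured by role; the dashed line is the median of all probes kept, 0.27. UBE2W has the longest bar, at 0.55, and UBE2K the shortest, at 0.08.

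UBE2W and UBE2J1, the most variable genes of the 39, each split the pigs at the brightest of their 3 probes and not at the other 2. UBE2J1, an E2 enzyme that handles proteins rejected from the endoplasmic reticulum, stood between 1.41 and 1.67 in 4 pigs (low RFI 5, high RFI 5 and 7, restricted 7) and between 2.09 and 2.62 in the other 20. At its other probes the same 4 pigs lay from 0.92 to 1.23 and from -0.10 to 0.13, within the other pigs' 0.96 to 1.55 and -0.22 to 0.51 but for 1 pig. UBE2W, which attaches ubiquitin to the amino terminus of proteins, stood between -1.42 and -0.93 in 5 pigs (low RFI 5 and 8, high RFI 5 and 8, restricted 5) and between -0.39 and 0.61 in the other 19. At its other 2 probes those 5 pigs lay from -0.54 to -0.01 and from -0.32 to -0.19, within the other pigs' ranges. The 4 pigs lowest for UBE2J1 were also the 4 lowest at all 3 probes of PSMB6 and at 1 further probe each of PSMC6, PSMD14 and UBE2D2. That made 7 of 104 member probes with a value on every array. Of these 7, 1 was the UBE2J1 probe by which the pigs were picked, and 3 were probes of 1 gene, PSMB6. Besides UBE2J1, 6 member probes remained. Over all probes with a value on every array, these pigs were the 4 lowest at 1.58%, and the 2 shares were not tested against each other. Without these 4 pigs, an alternative chosen after seeing the data, no gene of the 39 passed the adjusted threshold, and UBE2J1 differed by -0.08 between high and low RFI. The cause of these splits was not tested. They cross the groups, and the group differences of UBE2J1 (-0.15, 95% interval -0.50 to 0.20, high minus low RFI) and UBE2W (0.35, -0.19 to 0.89, restricted minus high RFI) were within the spread between pigs.

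As a share of the whole range, the gap between the lower and upper pigs was 0.348 for UBE2J1 and 0.267 for UBE2W. Among all 29060 probes with a value on every array, 0.427% had a gap as large as the first, with at least 3 pigs on either side, and 1.80% one as large as the second. The brightest UBE2W probe takes its name from a partial similarity to a frog protein, so the probe's gene is less certain than that of the other 2.

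**Figure D5:**
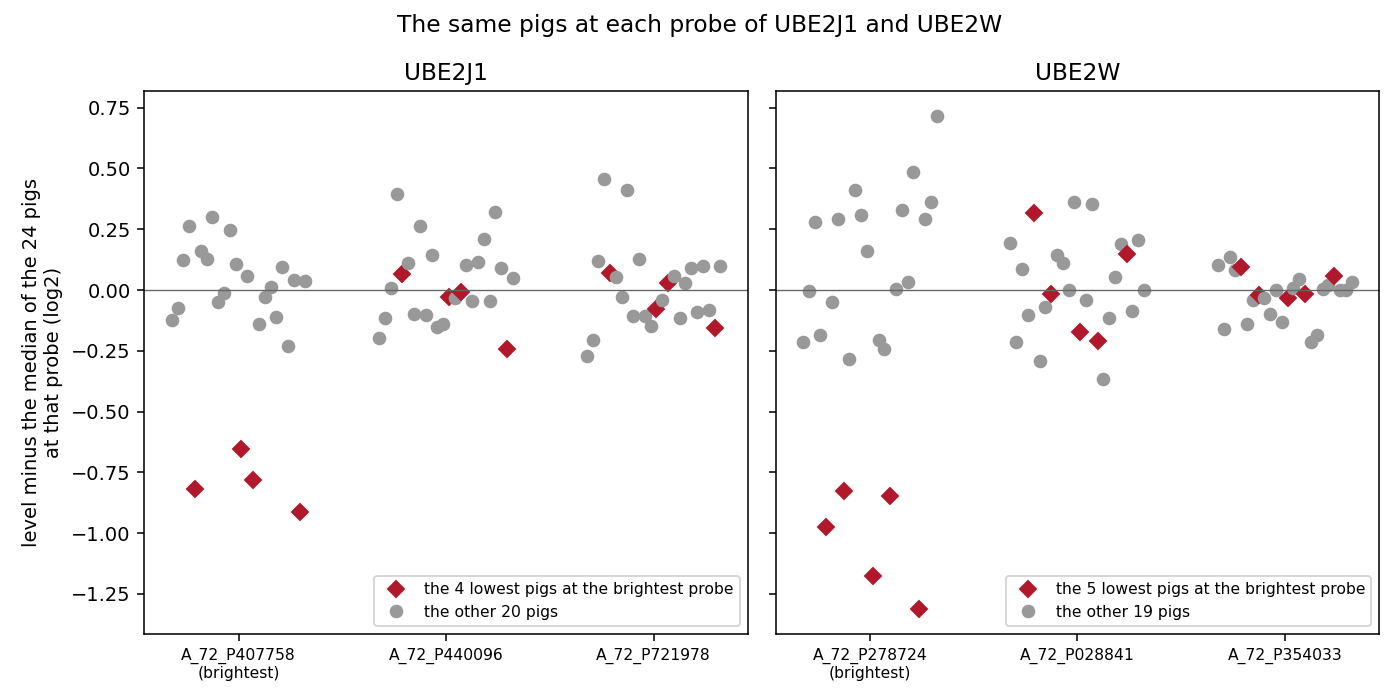
Level minus the median of the 24 pigs at that probe (log2) for the 3 probes of UBE2J1 and of UBE2W, 1 point per pig; red diamonds are the 4 (UBE2J1) or 5 (UBE2W) lowest pigs at the brightest probe. The diamonds are separate from the other pigs at the brightest probe and, but for 1 pig of UBE2J1, lie within their range at the other probes.

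The rest of the ubiquitin pathway was read from lists of ubiquitin genes, E1 enzymes and modifiers (6 tested of 20 listed), E3 ligases (12 of 45), deubiquitinases (11 of 28) and factors for assembly, regulation and shuttling (5 of 30). None of these 34 genes passed the adjusted threshold in any comparison. At an unadjusted p below 0.05, 0 were higher and 3 lower in high than in low RFI pigs, beside 5.17% and 4.47% of all probes. In restricted minus high RFI 0 differed, beside 2.54% of all probes higher and 2.83% lower. In restricted high minus low RFI 1 was higher and 2 were lower, beside 6.2% and 6.59% of all probes. The medians were -0.01, 0.02 and 0.01 in that order.

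FBXO32 (atrogin-1), an E3 ligase known from muscle wasting, had a mean of 0.12 ± 0.41 in low RFI, -0.47 ± 0.72 in high RFI and -0.54 ± 0.33 (SD, n = 8 each) in restricted high RFI pigs. The differences from low RFI were -0.59, with an adjusted p of 0.433, and -0.66, with an adjusted p of 0.245 (limma), and both share the low RFI arrays. SUMO2, a ubiquitin-like modifier, differed from low RFI by -0.14 (adjusted p of 0.468) and -0.15 (adjusted p of 0.310, limma). USP30, a mitochondrial deubiquitinase, was lower by -0.22 in high than in low RFI pigs, with an adjusted p of 0.459, and HUWE1, a large E3 ligase, had a restricted high minus low RFI difference of 0.15, with an adjusted p of 0.371 (limma). In restricted minus high RFI, WWP1, an E3 ligase, had a difference of -0.16, with an unadjusted p of 0.079 and an adjusted p of 0.926 (limma).

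Markers of other cell types were read on the same arrays. None of the hepatocyte (7), T and NK cell (9), macrophage and Kupffer cell (6), neutrophil (3), stellate cell and fibroblast (7), endothelial (6), erythroid (1) and pancreatic acinar (2) markers tested passed the adjusted threshold in any comparison. Hepatocyte marker scores lay between -0.13 and 0.16 in all 24 pigs. Of the 7 stellate cell and fibroblast markers, 6 were lower in restricted high than in low RFI pigs, beside 51.3% of all probes. At an unadjusted p below 0.05, 4 of the 7 were lower, beside 6.59% of all probes. Their score ranges were -0.62 to 0.17 in restricted high RFI and -0.02 to 0.65 in low RFI pigs. T and NK cell scores ran from -0.52 to 0.29 in low RFI and from -0.41 to 0.49 in high RFI pigs. The part of these cell types in the differences of the proteasome and E2 genes was not tested.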

How the data were processed

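Liver RNA of 24 pigs was hybridised to 1-colour Agilent arrays, 150 ng of total RNA labelled with Cy3 per pig, per the labels' protocols. The authors deposited the scanner output, whose intensity values are the processed signal of Agilent Feature Extraction 10.7.3.1, background-subtracted and detrended per the file headers. They also deposited log2 values for 27564 features, each equal to log2 of that signal minus the array's median, which served as an alternative. The submitters' processing notes name R 2.10.0.

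Of 45220 features, 1417 controls and spots marked as outliers were left out. From log2 signals each array's 75th percentile was taken away, and repeat spots were averaged, giving 43603 probes. A probe was kept if at least 6 of a group's 8 arrays measured it well above background (29666 probes). Names came from accessions, gene identifiers, symbols or full names of the deposited files, looked up in gene tables for pig (RefSeq annotation of Sscrofa11.1, names only); 32144 probes had none. No genome, promoter or protein sequences were used, so positions and promoter motifs were not analysed here.

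Group differences came from lmFit and eBayes (limma 3.58.1, R 4.3.3) over all 24 arrays with group as the only factor, with Benjamini-Hochberg adjustment over all probes kept and a threshold of 0.05. The fit was tested on simulated data. The number of arrays limits the precision. List scores are means of each gene's deviation from its average over 24 pigs. Correlations across pigs are given as descriptions, with no test. Other software was data.table (version 1.17.8), matplotlib 3.10.9, numpy 2.4.6, pandas 2.3.3 and Python 3.11.15.

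The genes and lists were chosen with earlier results of these data known. Genes named are those past the threshold, the 6 with the smallest p per comparison, the 2 most and 1 least variable per role, genes chosen by role, and up to 3 pathway genes per comparison with the smallest p; UBE2J2 and UBE2D1 were named after their values were seen. Of the pathway genes, 2 that the rule names are not reported here. Alternatives covered the background correction, normalization, filter, choice of probe, samples in the fit, array weights, slide and scan day, pig number, and pigs left out; reading members only from probes named by an identifier or symbol was added after seeing the data, as was leaving out 4 pigs that were lowest at several probes.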

Additional observations from a re-analysis of the deposited data

Results flagged for a closer look

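Each group of 8 pigs was checked for a highest or lowest pig set apart from the others, where the gap to the nearest pig exceeded Dixon's critical share of the group's range. Of 81 groups checked (27 named genes in 3 groups), 5 had such a pig. Chance gives about 1 in 20 for genes not picked by their spread. Some of the 27 were named for being the most variable of their role, so that rate does not hold for them. PSMA7 was highest in high RFI pig 8, at -1.90 against -2.16 in the next pig. UBE2J1 was lowest in low RFI pig 5, at 1.50 against 2.19, and in restricted high RFI pig 7, at 1.41 against 2.09. UBE2W was lowest in restricted high RFI pig 5, at -1.42 against -0.10. UBE2Z was highest in low RFI pig 5, at 4.05 against 3.78. The UBE2J1 and UBE2W values come from the probes at which 4 and 5 pigs stood apart, and the other probes of these genes did not show these gaps. The 4 pigs lowest for UBE2J1 were also the 4 lowest at all 3 PSMB6 probes.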

How the results depend on the processing

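The count of members past the adjusted threshold was 0 in each comparison under all 20 alternatives that kept or replaced whole settings, and between 0 and 1 when each pig was left out in turn, the 1 being PSMB10 in high minus low RFI without low RFI pig 5. Leaving out each pig gave median differences from -0.02 to 0.04, from -0.02 to 0.02 and from 0.02 to 0.06 for high minus low, restricted minus high and restricted high minus low RFI. In the 1st scan day alone the medians were 0.095 and 0.120 for high minus low and restricted high minus low RFI. The SD between single pigs' medians was 0.079, which is not the error of a difference between groups. The cause of the 1st day's medians was not tested. With normexp background correction the median of all probes moved from -0.01 to -0.11 in restricted high minus low RFI, while that of the members was 0.11; the probes called fell from 68 to 13 there and from 48 to 5 in high minus low RFI. Of the 81 differences of named genes, 32 kept their sign under every alternative. The deviations of same-numbered pigs had a mean correlation of 0.055 over 24 pairs, 8 of them over 0.1. Other pairs from different groups had a mean of -0.007 over 168 pairs, 29 of them over 0.1. The labels do not say that the numbers pair pigs, and they were not taken as pairs. With the pig number as a replicate block 0 members passed in any comparison, with medians of -0.01, -0.005 and 0.04. With 8 arrays a group, the 95% interval of a high minus low difference stayed within 0.5 for 36 of 39 genes.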

Other observations

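The correlation of PSMB10, PSME1 and PSME2 with the score of other interferon-induced genes, and of UBE2T with the cell cycle score, is given here as a description. These 4 relations were chosen after the values were seen in the same pigs, so no p-value is given. High RFI pigs 5 and 7, which lie apart in the interferon score, were left out of the first 3, and none of these genes is in the list it was set against. For PSMB10, Pearson's r with the interferon gene score was 0.66 and Spearman's rho 0.59 over 22 pigs. Without the 2 pigs farthest from the median score r was 0.59, and within the scan days it was 0.71 and 0.45 (11 pigs each).

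For PSME2, r was 0.50 and rho 0.57 over the same pigs, with r at 0.38 without the 2 farthest pigs and at 0.59 and 0.36 within the scan days. For PSME1, r was 0.32 and rho 0.24, with r at 0.20 without the 2 farthest pigs and at 0.47 and 0.24 within the scan days. For UBE2T and the cell cycle score, r was 0.73 and rho 0.72 over 24 pigs. Without the 2 farthest pigs r was 0.59, and within the scan days it was 0.64 and 0.79 (12 pigs each). Around the group means, r was 0.74 for PSMB10, 0.46 for PSME2, 0.28 for PSME1 and 0.71 for UBE2T. All these values share each pig's array and its scaling.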
